A study of Homo sapiens with 12 samples.

Results

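The mitosis and G2/M gene module comprised 50 genes whose products take a cell into mitosis, hold or release the spindle checkpoint, move chromosomes and divide the cell. Its members were taken from a list of gene symbols and matched through Ensembl gene IDs, with no measured value used in the matching. The list itself was chosen with earlier results of these data known. All 50 symbols matched 1 ID each among the 60617 genes listed, and all 50 were among the 21581 genes that passed the filter on low counts. They were divided by role into kinases, cyclins and phosphatases of mitotic entry (11 genes), the spindle checkpoint (5), anaphase control (4), the chromosomal passenger complex (4), kinetochore and centromere (6), kinesins (5), spindle proteins (4), cytokinesis (3), condensin and chromosome proteins (6) and transcription regulators (2).

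RNA was sequenced from A549 cells, an established human lung adenocarcinoma line, 24 hours after siRNA transfection. The 3 groups were cells given siYAP/TAZ#1 (n = 4 libraries), cells given siYAP/TAZ#2 (n = 4) and cells given the control siRNA siCo (n = 4). Both combinations target YAP1 and WWTR1, the gene of TAZ, so no group had either of the 2 genes reduced alone, and all groups came from 1 cell line with transient transfection at 1 time point. The series calls the 4 libraries of a group biological replicates, and the sources used here do not say what was kept separate between them (culture, transfection or RNA).

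Mitotic entry is set by CDK1 bound to cyclin B, which WEE1-family kinases hold back by phosphorylation and CDC25 phosphatases release, with Polo-like kinase 1 and aurora A helping to trip the switch. The spindle checkpoint then restrains the anaphase-promoting complex (APC/C) and its activator CDC20 until chromosomes are attached, after which securin and cyclin B are destroyed. Many of these genes are transcribed in G2 under B-MYB, the MuvB complex and FOXM1, and repressed in resting cells by the DREAM complex. YAP and TAZ are transcriptional coactivators restrained by the Hippo kinases and known for promoting proliferation of epithelial cells.

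Libraries held 29.6 to 38.3 M (mega) estimated counts. Levels are given as CPM (estimated counts over a common library size, with TMM factors) or as TPM (the deposited values, which also correct for transcript length). YAP1 was at 18.7 ± 1.43 CPM with siYAP/TAZ#1 and 17.4 ± 1.19 with siYAP/TAZ#2, against 121 ± 4.03 in siCo (SD, n = 4 each), and WWTR1 at 32.9 ± 1.14 and 32.4 ± 2.38, against 241 ± 9.71 in siCo. All 10 markers of a lung epithelial line exceeded 1 TPM in at least 1 library. Of 14 markers of blood, endothelial, fibroblast and muscle cells, 11 stayed below 1 TPM in every library. CD14, COL1A1 and ACTA2 were the others, and the summed level of the 14 spanned 168 to 199.6 CPM in siYAP/TAZ#1 libraries and 136 to 196 CPM in siYAP/TAZ#2 libraries, against 119.6 to 134 CPM in siCo. CD3E was at 0 in all treated libraries and DES at 0 in siCo. The part of these markers in the results was not tested.

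After TMM scaling, which centres changes on the bulk of genes, most of the module was lower with either combination. With siYAP/TAZ#1, 43 of 50 genes fell, 1 rose and 6 did not pass the test (edgeR quasi-likelihood test, Benjamini-Hochberg adjusted p under 0.05). Of all genes tested, 18.5% fell and 16.4% rose in that comparison. With siYAP/TAZ#2, 39 fell, 1 rose and 10 did not pass, where 19.2% of all genes fell and 19% rose. The median change of the module was -0.38 (log2, range -0.86 to 0.28) with siYAP/TAZ#1 and -0.37 (range -2.46 to 0.27) with siYAP/TAZ#2, against a median of 0.02 over all genes in each comparison. Ranked among the changes of all genes, the median member stood at percentile 14.7 with siYAP/TAZ#1 and at percentile 16.8 with siYAP/TAZ#2. A background nearer to the module in abundance, the 10975 coding genes with a mean of 5 CPM or more, had 33.3% of genes lower with siYAP/TAZ#1 and 33.4% lower with siYAP/TAZ#2, against 86% and 78% of the module. The median change of those coding genes was -0.09 with siYAP/TAZ#1 and -0.08 with siYAP/TAZ#2. In each comparison 47 of the 50 module genes lay below that median.

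The same 38 genes fell with both combinations and 1 rose with both, where 13.3% of all genes fell with both. The comparisons share their siCo libraries, so they are not independent of each other. KIF11, HMMR, NCAPG, SMC2 and MKI67 fell with siYAP/TAZ#1 and did not pass the test with siYAP/TAZ#2, and NUSAP1 the other way round. TTK, CENPE, NDC80, SPC25 and CDC25C passed with neither. In 42 genes every siYAP/TAZ#1 library lay below every siCo library, as in 20.7% of all genes, and in 37 genes every siYAP/TAZ#2 library did, as in 17.7% of all genes. In 36 genes the 8 treated libraries were each below the lowest siCo library, as in 13.1% of all genes. Shares that fell with both or did not overlap were not computed for coding genes at 5 CPM or more. In single comparisons 33.3% and 33.4% of those coding genes fell, against 18.5% and 19.2% of all genes.

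**Figure D1:**
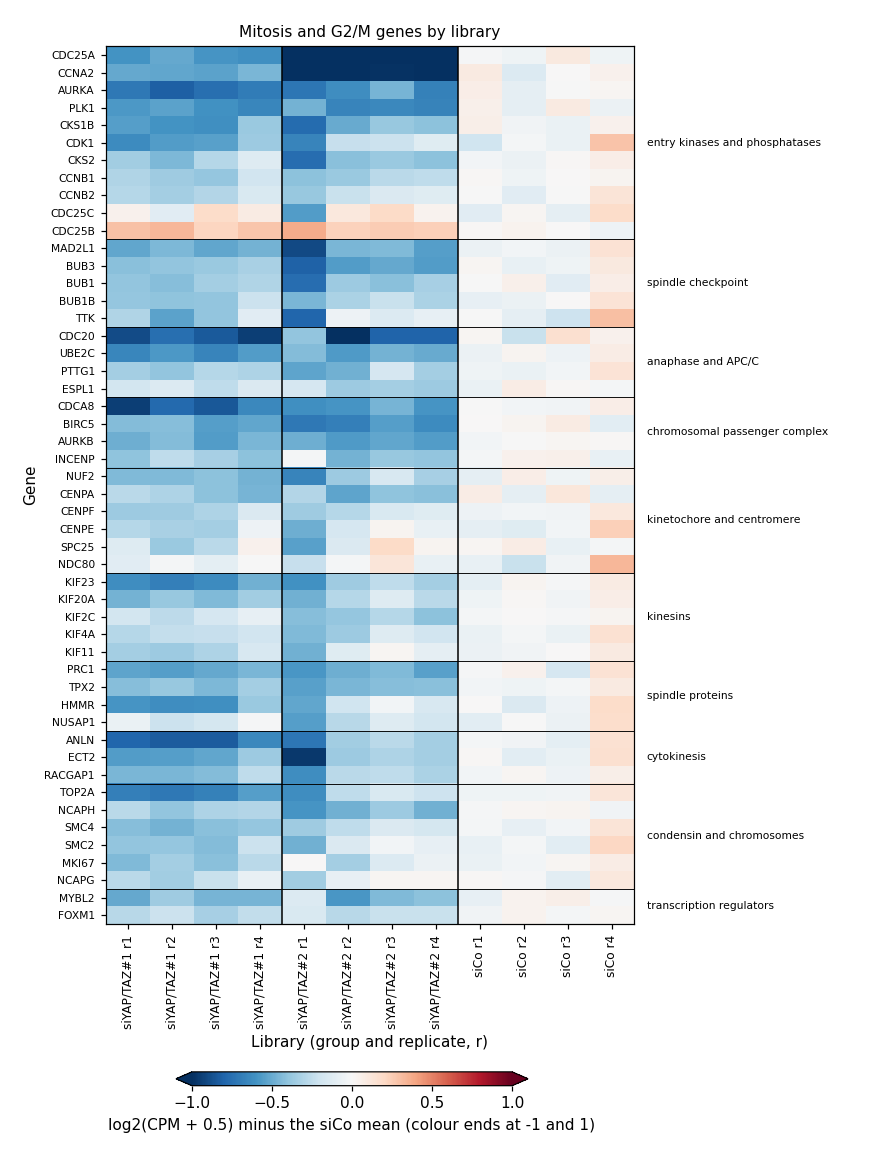
Each row is a gene, grouped by role, each column a library, and the colour is log2(CPM + 0.5) minus the mean of the 4 siCo libraries, with colours ending at -1 and 1 (with siYAP/TAZ#2, CDC25A lies beyond the end in all 4 libraries, CCNA2 in all but replicate 3, and CDC20 in replicate 2). After TMM scaling blue fills most of the 8 treated columns (on TPM 24 and 33 of the 50 changes were positive), CDC25B is above siCo throughout, and the first siYAP/TAZ#2 library differs from the other 3 in several rows.

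The size and the sign of these changes depended on how libraries were scaled. With library size alone the median of all genes moved to 0.20 with siYAP/TAZ#1 and 0.21 with siYAP/TAZ#2, and 24 and 18 module genes were called lower. Among all 21581 genes, 1905 and 2037 were called lower with that scaling. On the deposited TPM values, tested with limma as log2(TPM + 1), the all-gene medians were 0.19 and 0.24 and the module's were -0.02 and 0.09. On that scale 24 of 50 genes with siYAP/TAZ#1 and 33 of 50 with siYAP/TAZ#2 had a positive change, and the calls were CDC25A lower and CDC25B higher, both with siYAP/TAZ#2. Relative to the all-gene median, the module lay below it in every case: 48 of 50 genes with siYAP/TAZ#1 and 49 with siYAP/TAZ#2 after TMM scaling, 48 and 49 with library size alone, and 45 and 42 on TPM. A few genes held much of the TPM: the 10 highest took 36.3 to 69% of a library's TPM, and coding genes took 28.2 to 57.6% of TPM while holding 87.5 to 93.5% of counts. When TMM factors were computed on the TPM values, an alternative chosen after seeing the data, 37 module genes fell with siYAP/TAZ#1 and 34 with siYAP/TAZ#2. Among all 21581 genes, 2895 and 3214 fell under that alternative.

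Across 7 scalings and tests, 15 genes had a negative change with both combinations every time: CCNA2, CDC25A, CKS1B, PLK1, AURKA, MAD2L1, CDC20, UBE2C, PTTG1, AURKB, BIRC5, CDCA8, TPX2, PRC1 and ECT2. CDC25B was positive every time, and the other 34 changed sign in at least 1 comparison. The share of all genes that kept their sign in this way was not computed, so these counts have no background. Summed over the module, TMM-scaled levels spanned 5513 to 5879 CPM in siYAP/TAZ#1 libraries and 5722 to 6135 CPM in siYAP/TAZ#2 libraries, against 7123 to 7548 CPM in siCo. Treated and siCo ranges were apart. Summed TPM overlapped, with a range of 1703 to 2836 in siYAP/TAZ#1 libraries and 1563 to 2883 in siYAP/TAZ#2 libraries, against 1584 to 2558 in siCo. Below, "fell", "rose", "lower" and "higher" refer to changes after TMM scaling, and each role is given with its count on TPM. A positive change on log2(TPM + 1) can still lie below the change of the median gene, which was 0.19 with siYAP/TAZ#1 and 0.24 with siYAP/TAZ#2. In RNA from whole cultures, fewer cells in G2 or mitosis and less RNA per cell cannot be told apart.

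**Figure D2:**
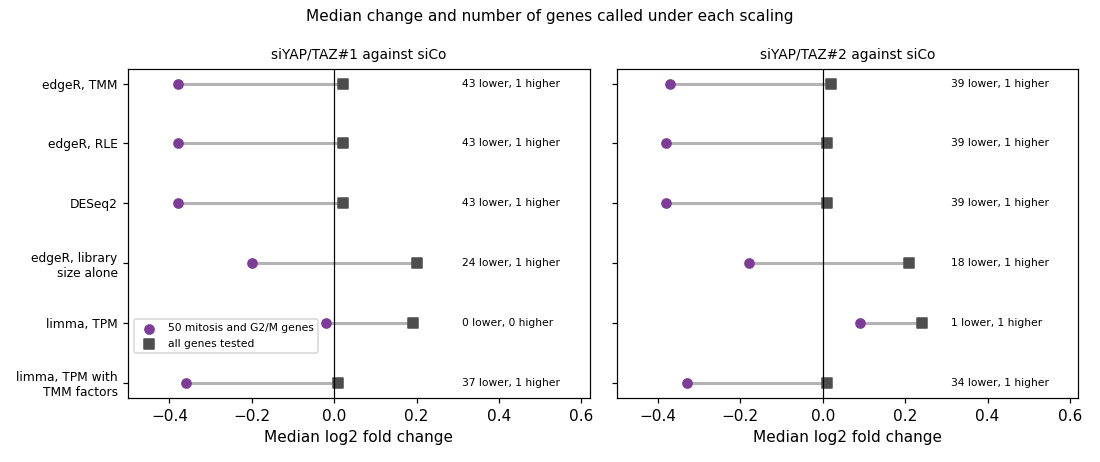
Purple points give the median log2 fold change of the 50 genes and grey squares that of all genes tested, under 6 combinations of test and scaling, for siYAP/TAZ#1 (left) and siYAP/TAZ#2 (right), with the numbers of module genes called. The module lies to the left of all genes in each row, while its position relative to 0 and the number of calls change, with 43 and 39 lower after TMM scaling and 0 and 1 on log2(TPM + 1).

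One library of siYAP/TAZ#2, replicate 1, stood apart within the module. Its median deviation from the siCo mean was -0.53, while the other siYAP/TAZ#2 libraries were at -0.36, -0.26 and -0.34 and the siYAP/TAZ#1 libraries between -0.42 and -0.33. Without it, 45 genes fell with siYAP/TAZ#1 and 39 with siYAP/TAZ#2. The siCo library of replicate 4 ran high, with a median deviation of 0.08 and 10 of 50 genes below the siCo mean, against 34 to 36 genes below it in the other siCo libraries. Replicate 4 also had the smallest median fall of the siYAP/TAZ#1 libraries and the highest summed TPM in each group, at 2836 with siYAP/TAZ#1 and 2883 with siYAP/TAZ#2, against 2558 in siCo. Without siCo replicate 4, 40 genes fell with siYAP/TAZ#1 and 35 with siYAP/TAZ#2.

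The module's promoters share sequence that the choice of genes did not use. A pair of short elements were searched on both strands of RefSeq promoter windows (GRCh38.p14, 250 bases before to 50 after each annotated start): TTTGAA, the cell cycle genes homology region (CHR) that MuvB is known to bind, and CCAAT, the box that NF-Y is known to bind. Windows were found for 42 of the 50 genes, 8 of them with more than 1. A CHR was present in 30 of 42 genes (71.4%), against 18.2% of 27305 genes with a window, and a CCAAT in 32 (76.2%), against 39.7%. Both stood in the same window in 23 genes (54.8%), against 7.26%. Of 43 CHR matches, 25 began within 60 bases before the start. A match is a string of letters and not a shown binding site, and only these exact strings were searched, so a missing match does not show that an element is absent.

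Promoters of 9 genes are printed. PLK1, CDC20, CDCA8, CKS1B, CCNB2 and PRC1 show both elements in genes of several roles that fell with both combinations. Not printed are CDC25C and SPC25, which also held both elements, and NDC80, which held a CHR, and none of these passed in either comparison with siCo. ANLN shows 2 CHR matches and no CCAAT in the printed stretch, and CDC25A, with the largest fall, and CDC25B, which rose, show CCAAT alone. Each line holds the 120 bases before the annotated start, 5′ to 3′ on the gene's strand, and capitals mark CHR (TTTGAA or its reverse complement TTCAAA) and CCAAT (or ATTGG). PLK1 is from chr16:23678769-23678888, plus strand. CDC20 is from chr1:43358861-43358980, plus strand. CDCA8 is from chr1:37692396-37692515, plus strand, where a CHR and a CCAAT overlap. CKS1B is from chr1:154974561-154974680, plus strand. CCNB2 is from chr15:59105026-59105145, plus strand. PRC1 is from chr15:90994536-90994655, minus strand. ANLN is from chr7:36389742-36389861, plus strand. CDC25A is from chr3:48188418-48188537, minus strand. CDC25B is from chr20:3796190-3796309, plus strand, the third of its 4 annotated starts.
PLK1: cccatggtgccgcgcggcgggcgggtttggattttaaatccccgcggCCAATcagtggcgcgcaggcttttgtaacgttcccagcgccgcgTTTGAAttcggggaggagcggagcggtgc
CDC20: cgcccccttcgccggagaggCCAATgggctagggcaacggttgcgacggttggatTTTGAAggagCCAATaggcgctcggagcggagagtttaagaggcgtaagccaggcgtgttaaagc
CDCA8: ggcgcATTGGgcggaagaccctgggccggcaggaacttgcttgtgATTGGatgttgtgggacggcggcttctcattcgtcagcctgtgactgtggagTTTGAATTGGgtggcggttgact
CKS1B: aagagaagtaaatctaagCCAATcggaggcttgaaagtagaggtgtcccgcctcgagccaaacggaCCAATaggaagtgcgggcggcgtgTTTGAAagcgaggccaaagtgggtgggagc
CCNB2: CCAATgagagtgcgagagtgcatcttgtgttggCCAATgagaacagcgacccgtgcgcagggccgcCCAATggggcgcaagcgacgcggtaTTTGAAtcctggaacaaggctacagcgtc
PRC1: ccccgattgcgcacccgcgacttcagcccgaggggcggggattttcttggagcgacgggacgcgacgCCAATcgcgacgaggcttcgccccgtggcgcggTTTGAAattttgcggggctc
ANLN: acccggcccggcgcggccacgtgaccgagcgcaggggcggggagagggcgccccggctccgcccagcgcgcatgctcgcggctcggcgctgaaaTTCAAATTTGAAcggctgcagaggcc
CDC25A: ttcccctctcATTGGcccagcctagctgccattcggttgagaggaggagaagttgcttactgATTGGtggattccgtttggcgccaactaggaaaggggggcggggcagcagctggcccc
CDC25B: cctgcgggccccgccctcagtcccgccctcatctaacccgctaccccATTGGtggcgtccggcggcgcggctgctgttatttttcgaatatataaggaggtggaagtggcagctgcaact
Neither CDC25A nor any of the 4 CDC25B windows held a match to TTTGAA or TTCAAA.

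**Figure D3:**
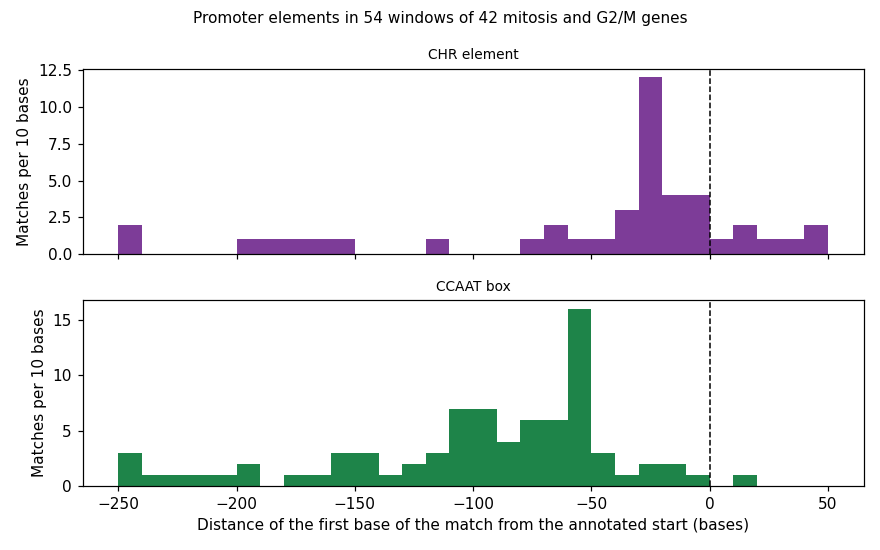
Histograms of the distance of CHR (top) and CCAAT (bottom) matches from the annotated start, in 54 RefSeq windows of 42 module genes, in steps of 10 bases. CHR matches gather just before the start, with 25 of 43 within 60 bases, and CCAAT matches lie mostly farther upstream.

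The 30 genes with a CHR had median log2 changes of -0.37 with siYAP/TAZ#1 and -0.30 with siYAP/TAZ#2, and 26 and 22 of them fell. The 12 genes with a window and no CHR match had medians of -0.35 and -0.38, and 10 fell in each comparison. The difference between these classes was not tested.

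Among the genes of mitotic entry, 9 of 11 fell with each combination, 1 rose and 1 passed in neither, and on log2(TPM + 1) 5 of the 11 had a positive change with each. The 3 CDC25 phosphatases, which strip inhibitory phosphates from cyclin-dependent kinases, went 3 ways. CDC25A (ENSG00000164045, chr3:48157146-48188402 on GRCh38, minus strand), which acts both at S phase entry and at mitosis, was at 37.1, 39.5, 37.2 and 36.7 CPM with siYAP/TAZ#1. It was at 10.1, 10.4, 10.4 and 9.89 CPM with siYAP/TAZ#2, against 56, 54.7, 60.3 and 54.7 CPM in siCo. The 3 groups did not overlap, and siYAP/TAZ#2 libraries were by far the lowest. The log2 change was -0.58 ± 0.056 (SE) with siYAP/TAZ#1 (edgeR adjusted p = 6.18e-07) and -2.46 ± 0.061 with siYAP/TAZ#2 (edgeR adjusted p = 1.43e-13), which left 66.7% and 18.1% of the siCo level. It was the module's largest change with siYAP/TAZ#2.

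CDC25B (ENSG00000101224, chr20:3786772-3806121 on GRCh38, plus strand), which first activates CDK1 with cyclin B in G2, was at 860.3, 883, 815 and 850.1 CPM with siYAP/TAZ#1. With siYAP/TAZ#2 it was at 908, 824, 839 and 830.1 CPM, against 708, 721, 705 and 678 CPM in siCo. All 8 treated libraries lay above all 4 siCo libraries. Its log2 change was 0.28 ± 0.052 with siYAP/TAZ#1 (edgeR adjusted p = 0.000539) and 0.27 ± 0.052 with siYAP/TAZ#2 (edgeR adjusted p = 0.000526), and it was the module's only gene that rose with either. CDC25C, which amplifies CDK1 activation at mitosis, passed in neither comparison. It was at 11.9 ± 1.06 CPM with siYAP/TAZ#1 and 11.2 ± 2.45 with siYAP/TAZ#2, against 11.4 ± 1.14 in siCo. It was the least abundant of the 3 phosphatases in siCo and with siYAP/TAZ#1, while CDC25A averaged lower with siYAP/TAZ#2 (10.2 ± 0.252 CPM). The 95% interval of the CDC25C log2 change ran between -0.24 and 0.34 with siYAP/TAZ#1 and between -0.33 and 0.25 with siYAP/TAZ#2. Changes within these bounds were not excluded.

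The ratio of CDC25A to CDC25B within a library, in TPM, does not depend on how libraries are scaled against each other. It spanned 0.0439 to 0.0645 in siYAP/TAZ#1 libraries and 0.0121 to 0.017 in siYAP/TAZ#2 libraries, against 0.0812 to 0.125 in siCo, with no overlap between the groups. This pair and the others below were chosen with their changes known, so the ratios are a description with no test.

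CCNA2 (ENSG00000145386, chr4:121816444-121823933 on GRCh38, minus strand) encodes cyclin A2, the partner of CDK2 and CDK1 in S phase and G2. It was at 53.4, 53.2, 52.7 and 55.6 CPM with siYAP/TAZ#1 and at 35.9, 36.3, 38.3 and 37 CPM with siYAP/TAZ#2, against 81.6, 69.5, 76.6 and 78.9 CPM in siCo. The groups were again fully apart, in the same order as for CDC25A. The log2 change was -0.51 ± 0.057 with siYAP/TAZ#1 (edgeR adjusted p = 3.42e-06) and -1.05 ± 0.058 with siYAP/TAZ#2 (edgeR adjusted p = 1.18e-09). CCNA2 and CDC25A were the 2 module genes past a 2-fold change, both with siYAP/TAZ#2. The B-type cyclins that bind CDK1 in mitosis fell less. CCNB1 averaged 102 ± 6.23 CPM with siYAP/TAZ#1 and 101 ± 5.32 with siYAP/TAZ#2, against 127 ± 2.55 in siCo, and its log2 changes were -0.31 ± 0.058 and -0.33 ± 0.058 (edgeR adjusted p = 0.000511 and 0.00027). CCNB2 changed by -0.27 ± 0.071 and -0.22 ± 0.071 (edgeR adjusted p = 0.00627 and 0.0222), and the second call was lost without siCo replicate 4 (edgeR adjusted p = 0.0967). The ratio of CCNA2 to CCNB1 in TPM spanned 0.249 to 0.265 in siYAP/TAZ#1 libraries and 0.166 to 0.19 in siYAP/TAZ#2 libraries, against 0.276 to 0.311 in siCo.

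**Figure D4:**
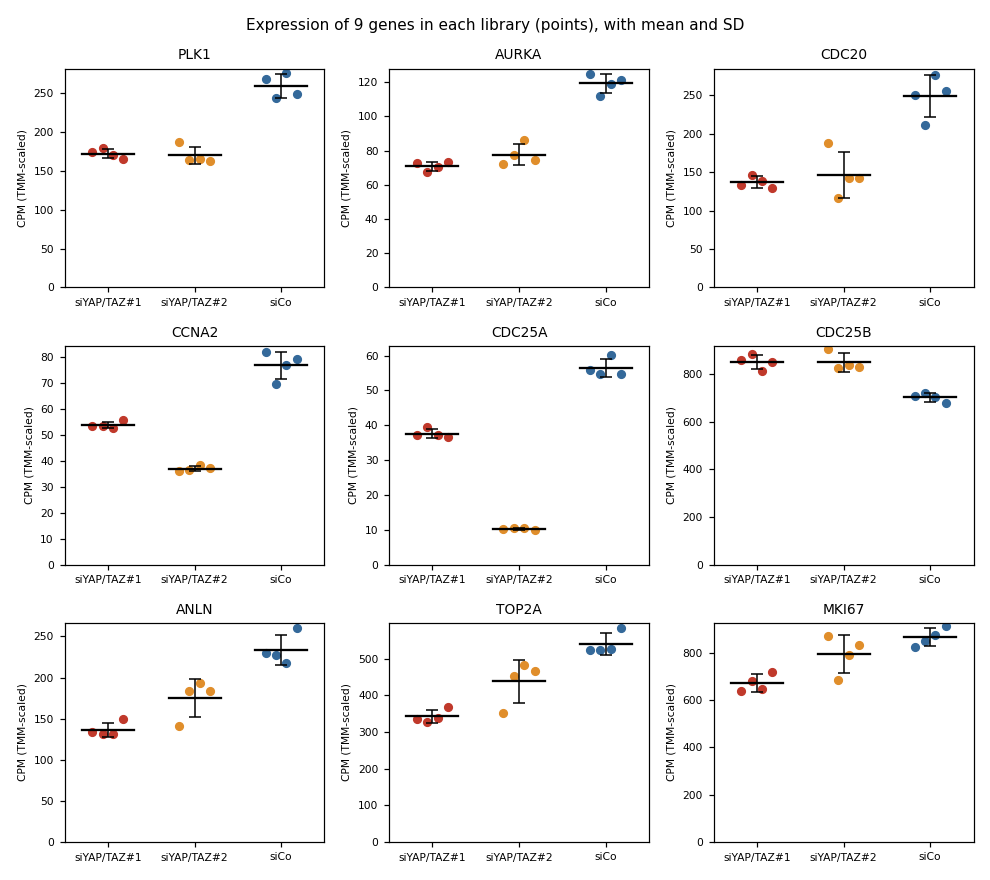
TMM-scaled CPM of 9 genes in each library (points) with the mean and SD of each group, from 0, with siYAP/TAZ#1, siYAP/TAZ#2 and siCo from left to right. CDC25A and CCNA2 are lowest with siYAP/TAZ#2, ANLN, TOP2A and MKI67 are lowest with siYAP/TAZ#1, and CDC25B is above siCo with both, while on log2(TPM + 1) the changes of ANLN and TOP2A with siYAP/TAZ#2 and of MKI67 with both were positive.

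Both trigger kinases fell with each combination. PLK1 (ENSG00000166851, chr16:23677656-23690367 on GRCh38, plus strand), the Polo-like kinase of mitotic entry and centrosomes, was at 174, 179, 170.3 and 165 CPM with siYAP/TAZ#1 and at 187, 164, 166 and 163 CPM with siYAP/TAZ#2, against 269, 244, 276 and 249 CPM in siCo. No treated library reached the lowest siCo library. Its log2 change was -0.59 ± 0.061 with siYAP/TAZ#1 (edgeR adjusted p = 1.32e-06) and -0.61 ± 0.061 with siYAP/TAZ#2 (edgeR adjusted p = 8.22e-07), and the difference of the first minus the second was 0.02 (95% interval -0.11 to 0.15). AURKA, the aurora kinase of spindle poles that activates PLK1, was at 72.6, 67.3, 70.3 and 73.1 CPM with siYAP/TAZ#1 and at 71.9, 77.2, 86.2 and 74.6 CPM with siYAP/TAZ#2, against 125, 112, 119 and 121 CPM in siCo. Its changes of -0.75 ± 0.063 and -0.62 ± 0.063 (edgeR adjusted p = 1.44e-07 and 9.37e-07) put it at percentile 3.58 of all genes with siYAP/TAZ#1.

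CDK1, the kinase that drives mitosis, fell with siYAP/TAZ#1, at 35.6 ± 2.9 CPM against 51.7 ± 7.73 in siCo (-0.54 ± 0.11, edgeR adjusted p = 0.00149). With siYAP/TAZ#2 it was at 41.8 ± 6.49 CPM (-0.31 ± 0.11, edgeR adjusted p = 0.044), where the libraries overlapped siCo. That call was lost when any 1 of 9 libraries was left out, that is each library but siYAP/TAZ#1 replicate 4, siYAP/TAZ#2 replicate 4 and siCo replicate 1, and edgeR adjusted p then ran between 0.056 and 0.196. The small CDK-binding subunits CKS1B and CKS2 both fell. CKS1B changed by -0.53 ± 0.081 with siYAP/TAZ#1 and -0.51 ± 0.081 with siYAP/TAZ#2 (edgeR adjusted p = 7.31e-05 and 9.52e-05), and CKS2 by -0.30 ± 0.088 and -0.49 ± 0.089 (edgeR adjusted p = 0.013 and 0.000329).

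In the spindle checkpoint, which delays anaphase while kinetochores are unattached, 4 of 5 genes fell with both combinations, and on log2(TPM + 1) 4 had a positive change with siYAP/TAZ#1 and 3 with siYAP/TAZ#2. On that scale 4 lay below the all-gene median with siYAP/TAZ#1 and all 5 with siYAP/TAZ#2. MAD2L1, the MAD2 protein that captures CDC20, was at 20.8, 21.8, 20.7 and 21.5 CPM with siYAP/TAZ#1 and at 15.8, 21.7, 21.9 and 20.3 CPM with siYAP/TAZ#2, against 28.7, 29.4, 28.8 and 33.2 CPM in siCo. The treated and siCo libraries did not overlap, and the changes were -0.51 ± 0.091 and -0.59 ± 0.091 (edgeR adjusted p = 0.000347 and 7.41e-05). BUB3, which docks BUB1 and BUBR1 on kinetochores, changed by -0.38 ± 0.066 with siYAP/TAZ#1 and -0.61 ± 0.066 with siYAP/TAZ#2 (edgeR adjusted p = 0.000251 and 2e-06). The kinase BUB1 changed by -0.37 ± 0.082 and -0.47 ± 0.083, and BUB1B, the gene of BUBR1, by -0.35 ± 0.071 and -0.33 ± 0.071 (edgeR adjusted p between 0.000262 and 0.00199 for these 4).

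TTK, the MPS1 kinase at the head of the checkpoint, averaged 22.6 ± 2.87 CPM with siYAP/TAZ#1 and 24.2 ± 5.28 with siYAP/TAZ#2, against 28.8 ± 4.63 in siCo, and passed in neither comparison (-0.35 ± 0.15 and -0.25 ± 0.15, edgeR adjusted p = 0.0783 and 0.2). The first siYAP/TAZ#2 library was at 16.3 CPM and the other 3 between 25.9 and 27.6 CPM. Without that library the siYAP/TAZ#1 change of TTK passed (edgeR adjusted p = 0.0065), as it did without siYAP/TAZ#1 replicate 4 (edgeR adjusted p = 0.0489).

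All 4 genes of anaphase control fell with both combinations, and on log2(TPM + 1) 1 of the 4, ESPL1, had a positive change with each. CDC20 (ENSG00000117399, chr1:43358955-43363203 on GRCh38, plus strand), the APC/C activator that the checkpoint restrains, had the largest fall of the module with siYAP/TAZ#1. It was at 133, 147, 138 and 129 CPM with siYAP/TAZ#1 and at 188, 116, 142 and 142 CPM with siYAP/TAZ#2, against 251, 212, 277 and 256 CPM in siCo. Treated libraries stayed below siCo, although the siYAP/TAZ#2 libraries were spread widely. The log2 changes were -0.86 ± 0.12 (edgeR adjusted p = 2.14e-05) and -0.76 ± 0.12 (edgeR adjusted p = 6.54e-05), which left 55% and 59.1% of the siCo level.

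UBE2C, the ubiquitin-conjugating enzyme that works with the APC/C, changed by -0.62 ± 0.055 with siYAP/TAZ#1 and -0.50 ± 0.055 with siYAP/TAZ#2 (edgeR adjusted p = 2.71e-07 and 2.32e-06). PTTG1, which encodes securin, changed by -0.34 ± 0.078 and -0.38 ± 0.078 (edgeR adjusted p = 0.00285 and 0.00102). ESPL1 encodes separase, the protease that securin inhibits and that cuts cohesin. It changed by -0.18 ± 0.059 and -0.30 ± 0.059 (edgeR adjusted p = 0.024 and 0.000583), and the siYAP/TAZ#1 call was lost without siCo replicate 2 (edgeR adjusted p = 0.0653) or siYAP/TAZ#1 replicate 3 (edgeR adjusted p = 0.0801). The ratio of CDC20 to BUB3 in TPM spanned 1.29 to 1.35 in siYAP/TAZ#1 libraries and 1.51 to 1.94 in siYAP/TAZ#2 libraries, against 1.66 to 2.07 in siCo, so the siYAP/TAZ#1 range lay apart from siCo and the siYAP/TAZ#2 range overlapped it.

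The chromosomal passenger complex, which corrects faulty attachments at centromeres and later guides cytokinesis, fell in all 4 members with both combinations, and on log2(TPM + 1) its scaffold INCENP had a positive change with each. CDCA8 (ENSG00000134690, chr1:37692418-37709719 on GRCh38, plus strand), the borealin subunit, was at 36.6, 40.9, 39.1 and 44.9 CPM with siYAP/TAZ#1 and at 46, 46.7, 50.9 and 46.8 CPM with siYAP/TAZ#2, against 70.4, 69.1, 68.9 and 74 CPM in siCo. Every siYAP/TAZ#1 library lay below every siYAP/TAZ#2 library, and both lay below siCo. The changes were -0.81 ± 0.065 and -0.57 ± 0.065 (edgeR adjusted p = 1e-07 and 3.57e-06).

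BIRC5, the survivin subunit, was at 89.5, 89.7, 82.5 and 84.3 CPM with siYAP/TAZ#1 and at 73.3, 75.1, 82.2 and 77.8 CPM with siYAP/TAZ#2, against 121, 123, 128 and 112 CPM in siCo. Here the order of the combinations was the reverse of CDCA8, with changes of -0.48 ± 0.059 and -0.65 ± 0.059 (edgeR adjusted p = 7.71e-06 and 2.71e-07), and their direct difference did not pass (0.17 ± 0.059, edgeR adjusted p = 0.0724). AURKB, the kinase of the complex, averaged 90.2 ± 3.35 CPM with siYAP/TAZ#1 and 87.1 ± 2.21 with siYAP/TAZ#2, against 127 ± 1.61 in siCo. It changed by -0.49 ± 0.049 and -0.54 ± 0.049 (edgeR adjusted p = 1.06e-06 and 3.02e-07). INCENP changed by -0.35 ± 0.083 and -0.30 ± 0.083 (edgeR adjusted p = 0.00329 and 0.0079), with 1 siYAP/TAZ#2 library at 229 CPM, inside the siCo range of 221 to 241.

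The kinetochore and centromere group held 3 of the module's 5 genes that passed with neither combination, and its other 3 fell with both. On log2(TPM + 1) 4 of its 6 genes had a positive change with siYAP/TAZ#1 and all 6 with siYAP/TAZ#2. On that scale 5 of the 6 lay below the all-gene median with each combination. CENPA, the histone H3 variant that marks centromeres, changed by -0.37 ± 0.074 with siYAP/TAZ#1 and -0.42 ± 0.074 with siYAP/TAZ#2 (edgeR adjusted p = 0.000811 and 0.000272). NUF2, a subunit of the NDC80 complex that holds microtubules, changed by -0.46 ± 0.092 and -0.38 ± 0.092 (edgeR adjusted p = 0.000872 and 0.00365). CENPF, a large protein of the outer kinetochore, changed by -0.29 ± 0.069 and -0.23 ± 0.069 (edgeR adjusted p = 0.00298 and 0.0147), and the siYAP/TAZ#2 call was lost without siCo replicate 4 (edgeR adjusted p = 0.0644).

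NUF2's partners in the same complex, NDC80 and SPC25, were at the low end of the module. NDC80 averaged 8 ± 0.324 CPM with siYAP/TAZ#1 and 8.06 ± 0.853 with siYAP/TAZ#2, against 8.44 ± 1.54 in siCo, with 95% intervals of the log2 change of -0.33 to 0.17 and -0.32 to 0.18. SPC25 averaged 6.94 ± 0.95 and 7.35 ± 1.62 CPM, against 7.89 ± 0.372 in siCo, with intervals of -0.49 to 0.11 and -0.40 to 0.20. Falls as large as that of NUF2 lay outside both intervals for NDC80 but inside both for SPC25. CENPE, the kinesin that carries chromosomes to the spindle equator, changed by -0.26 ± 0.11 and -0.17 ± 0.11 (edgeR adjusted p = 0.0802 and 0.235). Its siYAP/TAZ#1 change passed without siYAP/TAZ#2 replicate 1 (edgeR adjusted p = 0.0147) or siYAP/TAZ#1 replicate 4 (edgeR adjusted p = 0.0358). Without siCo replicate 4, the NDC80 changes were 0.06 with siYAP/TAZ#1 and 0.08 with siYAP/TAZ#2, and without siYAP/TAZ#2 replicate 1 the SPC25 change with siYAP/TAZ#2 was 0.04.

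**Figure D5:**
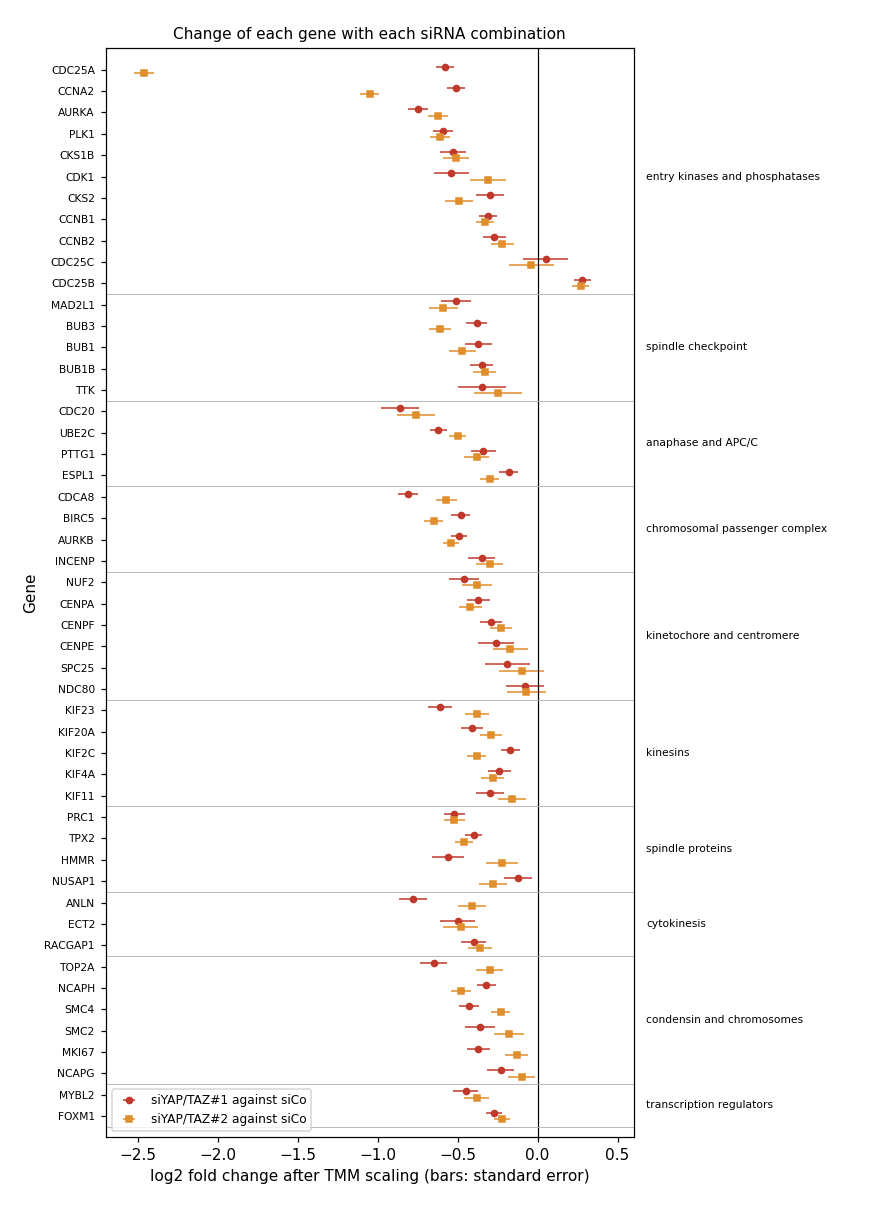
Log2 fold change after TMM scaling (points) with its standard error (bars) for each of the 50 genes, grouped by role, with siYAP/TAZ#1 as circles and siYAP/TAZ#2 as squares, each against siCo. Points lie between -0.9 and 0 except CDC25A and CCNA2 with siYAP/TAZ#2 below and, on the positive side, CDC25B with both and CDC25C with siYAP/TAZ#1 (0.05, not called), while on log2(TPM + 1) 24 and 33 of the 50 genes had a positive change.

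Among the kinesins, all 5 fell with siYAP/TAZ#1 and 4 with siYAP/TAZ#2, and on log2(TPM + 1) 3 and 5 had a positive change. KIF23, the motor of the centralspindlin complex that organises the midzone, was at 63.2, 60.4, 62.9 and 69.7 CPM with siYAP/TAZ#1 and at 63.8, 76.1, 81.7 and 76.9 CPM with siYAP/TAZ#2, against 91.1, 99.3, 96.3 and 103 CPM in siCo. Its changes were -0.61 ± 0.074 and -0.38 ± 0.074 (edgeR adjusted p = 8.85e-06 and 0.000579). KIF20A, which brings aurora B to the midzone, changed by -0.41 ± 0.068 and -0.29 ± 0.068 (edgeR adjusted p = 0.000157 and 0.00282).

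KIF11, the motor that pushes spindle poles apart, fell with siYAP/TAZ#1 (-0.30 ± 0.087, edgeR adjusted p = 0.0145) and did not pass with siYAP/TAZ#2 (-0.16 ± 0.087, edgeR adjusted p = 0.172), and the difference between the combinations did not pass either (-0.14 ± 0.087, edgeR adjusted p = 0.376). KIF2C, the microtubule depolymerase of centromeres, went the other way in size: -0.17 ± 0.058 with siYAP/TAZ#1 and -0.38 ± 0.059 with siYAP/TAZ#2 (edgeR adjusted p = 0.029 and 7.62e-05). Its siYAP/TAZ#1 call was lost without siYAP/TAZ#1 replicate 1, 2 or 3 or siCo replicate 2 or 4 (edgeR adjusted p between 0.0518 and 0.0918). KIF4A, the chromokinesin that shortens midzone microtubules, changed by -0.24 ± 0.072 and -0.28 ± 0.073 (edgeR adjusted p = 0.0165 and 0.00551), and its siYAP/TAZ#1 call was lost without siYAP/TAZ#1 replicate 1 (edgeR adjusted p = 0.054) or siCo replicate 4 (edgeR adjusted p = 0.07).

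Of the 4 other spindle proteins, 2 fell with both combinations and 1 with each alone, and on log2(TPM + 1) 1 had a positive change with siYAP/TAZ#1 and 2 with siYAP/TAZ#2. PRC1, which bundles antiparallel midzone microtubules, was at 122, 119.8, 123 and 128 CPM with siYAP/TAZ#1 and at 117, 125, 129 and 120.4 CPM with siYAP/TAZ#2, against 174, 181, 156 and 194 CPM in siCo. Its changes were -0.52 ± 0.065 with each combination (edgeR adjusted p = 1.04e-05 and 8.77e-06). TPX2, the activator of aurora A on spindle microtubules, changed by -0.40 ± 0.053 and -0.46 ± 0.054 (edgeR adjusted p = 2.26e-05 and 4.13e-06).

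HMMR, a spindle pole protein that is also a hyaluronan receptor, fell with siYAP/TAZ#1 (-0.56 ± 0.10, edgeR adjusted p = 0.000383) and did not pass with siYAP/TAZ#2 (-0.22 ± 0.10, edgeR adjusted p = 0.0937). That second change passed without siYAP/TAZ#2 replicate 3 (edgeR adjusted p = 0.0389). NUSAP1, which bundles spindle microtubules near chromosomes, fell with siYAP/TAZ#2 (-0.28 ± 0.088, edgeR adjusted p = 0.0183) and did not pass with siYAP/TAZ#1 (-0.12 ± 0.088, edgeR adjusted p = 0.332). Its siYAP/TAZ#2 call was lost without siCo replicate 4 (edgeR adjusted p = 0.0828), and its combinations did not differ in the direct test (0.16 ± 0.088, edgeR adjusted p = 0.272).

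All 3 genes of cytokinesis fell with both combinations, and on log2(TPM + 1) none had a positive change with siYAP/TAZ#1 and 2 did with siYAP/TAZ#2. ANLN encodes anillin, which ties actin, myosin and septins together in the contractile ring, and its gene lies at chr7:36389806-36453791 (GRCh38, plus strand). It was at 134, 131, 131 and 149 CPM with siYAP/TAZ#1 and at 141, 183, 193 and 184 CPM with siYAP/TAZ#2, against 229.9, 227, 218 and 259.8 CPM in siCo. With siYAP/TAZ#1 it changed by -0.78 ± 0.088 (edgeR adjusted p = 3.87e-06) and with siYAP/TAZ#2 by -0.41 ± 0.088 (edgeR adjusted p = 0.00126).

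ECT2, the exchange factor that activates RhoA at the division plane, was at 115, 116, 118 and 132 CPM with siYAP/TAZ#1 and at 86.9, 132, 137 and 134 CPM with siYAP/TAZ#2, against 171, 158, 162 and 190.0 CPM in siCo. All treated libraries lay below siCo and the first siYAP/TAZ#2 library lay far below its group. The changes were -0.50 ± 0.11 and -0.48 ± 0.11 (edgeR adjusted p = 0.00236 and 0.00321). RACGAP1, the centralspindlin partner of KIF23 that recruits ECT2, changed by -0.40 ± 0.077 and -0.36 ± 0.077 (edgeR adjusted p = 0.000586 and 0.00126).

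Condensin and chromosome proteins fell in 6 of 6 genes with siYAP/TAZ#1 and in 3 of 6 with siYAP/TAZ#2, and on log2(TPM + 1) 4 and 6 had a positive change. TOP2A, the topoisomerase that untangles sister chromatids, was at 336, 328, 338 and 368 CPM with siYAP/TAZ#1 and at 351, 452, 484 and 466 CPM with siYAP/TAZ#2, against 524, 523, 526 and 585 CPM in siCo. It changed by -0.65 ± 0.084 with siYAP/TAZ#1 and by -0.30 ± 0.084 with siYAP/TAZ#2 (edgeR adjusted p = 1.44e-05 and 0.00953). MKI67, the Ki-67 protein that coats mitotic chromosomes and serves as a proliferation marker, was at 639.6, 683, 648 and 721 CPM with siYAP/TAZ#1 and at 871, 686, 790.2 and 833 CPM with siYAP/TAZ#2, against 826, 851, 879 and 914 CPM in siCo. The siYAP/TAZ#1 libraries were all below siCo, while siYAP/TAZ#2 overlapped it. The changes were -0.37 ± 0.071 (edgeR adjusted p = 0.000681) and -0.13 ± 0.071 (edgeR adjusted p = 0.186), and the second passed without siYAP/TAZ#2 replicate 1 (-0.17, edgeR adjusted p = 0.0345).

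Of the condensin subunits, the ATPases SMC4 and SMC2 stand at the core and NCAPH and NCAPG belong to condensin I. SMC4 changed by -0.43 ± 0.061 with siYAP/TAZ#1 and -0.23 ± 0.060 with siYAP/TAZ#2 (edgeR adjusted p = 3.77e-05 and 0.0059), and NCAPH by -0.32 ± 0.060 and -0.48 ± 0.061 (edgeR adjusted p = 0.000603 and 9.55e-06). SMC2 fell with siYAP/TAZ#1 (-0.36 ± 0.095, edgeR adjusted p = 0.00668) and did not pass with siYAP/TAZ#2 (-0.18 ± 0.094, edgeR adjusted p = 0.154). NCAPG was the closest to the threshold of the genes called with siYAP/TAZ#1 (-0.23 ± 0.085, edgeR adjusted p = 0.0445) and did not pass with siYAP/TAZ#2 (-0.10 ± 0.085, edgeR adjusted p = 0.42). The NCAPG call was lost when any 1 of 7 libraries was left out, that is siYAP/TAZ#1 replicate 1, 2 or 3, siYAP/TAZ#2 replicate 2, or siCo replicate 1, 2 or 4, and edgeR adjusted p then ran between 0.0512 and 0.133.

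Both transcription regulators fell with both combinations, although on log2(TPM + 1) FOXM1 had a positive change with each and MYBL2 with siYAP/TAZ#2. FOXM1, the forkhead factor of G2 transcription, was at 268, 279, 257 and 274 CPM with siYAP/TAZ#1 and at 291, 268, 278 and 278 CPM with siYAP/TAZ#2, against 317, 332, 319 and 329 CPM in siCo. Treated and siCo libraries were apart on this scale, and the changes were small, at -0.27 ± 0.050 and -0.22 ± 0.050 (edgeR adjusted p = 0.00054 and 0.00242). These SE do not include the shift between scalings. MYBL2, which encodes B-MYB, was at 269, 299.8, 278 and 278 CPM with siYAP/TAZ#1 and at 349, 257, 283 and 289 CPM with siYAP/TAZ#2, against 363, 394, 399 and 381 CPM in siCo. It changed by -0.45 ± 0.078 and -0.38 ± 0.078 (edgeR adjusted p = 0.000254 and 0.000877).

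The direct comparison of the combinations asked where their effects on the module differed. Of 50 genes, 6 were lower with siYAP/TAZ#1 than with siYAP/TAZ#2, 4 were higher and 40 did not pass, and of all genes 8.2% were lower and 6.92% higher. Of coding genes with a mean of 5 CPM or more, 13.6% were lower and 11.7% higher, and the module's shares did not exceed these. CDC25A differed most by far, at 37.6 ± 1.25 CPM with siYAP/TAZ#1 and 10.2 ± 0.252 with siYAP/TAZ#2 (log2 difference 1.88 ± 0.060, edgeR adjusted p = 7.52e-12). CCNA2 came next, at 53.7 ± 1.29 and 36.9 ± 1.03 CPM (0.54 ± 0.058, edgeR adjusted p = 4.78e-06). On log2(TPM + 1) the CDC25A difference was 1.60 and was the one difference in the module that passed.

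The other differences were smaller. BUB3 (0.23 ± 0.066) and KIF2C (0.21 ± 0.058) were higher with siYAP/TAZ#1, and ANLN (-0.36 ± 0.088), TOP2A (-0.35 ± 0.084), HMMR (-0.33 ± 0.10), CDCA8 (-0.24 ± 0.066), MKI67 (-0.24 ± 0.071) and SMC4 (-0.20 ± 0.060) were lower. Their edgeR adjusted p ran between 0.00748 for TOP2A and 0.0383 for SMC4, and KIF23 and BIRC5 were next outside the threshold at 0.0566 and 0.0724. Among these 8, CDCA8, SMC4, BUB3 and KIF2C had no overlap between the libraries of the combinations, and for the other 4 a single siYAP/TAZ#2 library lay within the siYAP/TAZ#1 range, replicate 1 for ANLN, TOP2A and HMMR and replicate 2 for MKI67. Without siYAP/TAZ#2 replicate 1, 13 module genes were lower and 5 higher with siYAP/TAZ#1, where 2840 of all genes were lower and 2287 higher. With another library left out, the module counts ran between 2 and 6 lower and between 2 and 5 higher. Leaving out siYAP/TAZ#1 replicate 1 or 3 gave 2 lower and 2 higher, siYAP/TAZ#1 replicate 2 gave 3 and 3, siYAP/TAZ#1 replicate 4 gave 6 and 2, siYAP/TAZ#2 replicate 3 gave 2 and 5, and siYAP/TAZ#2 replicate 2 or 4 gave 4 and 3 or 3 and 3. The calls of CDC25A, CCNA2, ANLN and TOP2A held with any 1 library left out.

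The other 6 calls between the combinations each depended on single libraries. The BUB3 call was lost without any 1 siYAP/TAZ#1 library (edgeR adjusted p between 0.0611 and 0.0797). That of CDCA8 was lost without siYAP/TAZ#1 replicate 1 or 3 or siYAP/TAZ#2 replicate 3 (edgeR adjusted p between 0.0695 and 0.077). KIF2C lost its call without siYAP/TAZ#1 replicate 1, 3 or 4 or siYAP/TAZ#2 replicate 2 or 4 (edgeR adjusted p between 0.0595 and 0.0902). All 3 had had no overlap between the combinations. HMMR lost it without siYAP/TAZ#1 replicate 1, 2 or 3 or siYAP/TAZ#2 replicate 2, 3 or 4 (edgeR adjusted p between 0.0657 and 0.127), and MKI67 without siYAP/TAZ#1 replicate 1, 2 or 3 or siYAP/TAZ#2 replicate 3 or 4 (edgeR adjusted p between 0.0505 and 0.0913). SMC4 lost it without any 1 siYAP/TAZ#1 library, siYAP/TAZ#2 replicate 2, 3 or 4 or siCo replicate 1 (edgeR adjusted p between 0.0511 and 0.124).

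Intervals of the direct difference varied in width. The difference for AURKB was 0.05 (95% interval -0.05 to 0.16, log2), for FOXM1 -0.05 (-0.15 to 0.06), for TPX2 0.06 (-0.05 to 0.18), for CCNB1 0.02 (-0.10 to 0.14) and for CDC25B 0.00 (-0.11 to 0.11). It was wider for TTK, at -0.10 (-0.41 to 0.22), for SPC25, at -0.09 (-0.39 to 0.21), and for CDC20, at -0.10 (-0.35 to 0.14).

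Levels differed widely within the module. In siCo, per-length levels ran between 3.33 ± 0.748 TPM for CENPE and 189.8 ± 30.7 TPM for CDC25B, with a module median of 28.9 TPM against 2.7 TPM over all genes tested. CDC25B, CKS1B (115 ± 26 TPM), CDC20 (105 ± 21.4), AURKB (102 ± 19.4) and UBE2C (93.6 ± 21) led, and CKS1B, CDC20, AURKB and UBE2C had overlapping libraries, so their order is not set. NUF2, TTK, NCAPG and HMMR lay between 7.77 and 9.08 TPM and also overlapped. CDC25C, NDC80, SPC25 and CENPE were lowest, and none of these 4 was called in either comparison with siCo. In all 17 genes were at 50 TPM or more and 8 under 10 TPM.

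Further gene lists are given by their counts, where 18.5% of all genes and 33.3% of coding genes at 5 CPM or more fell with siYAP/TAZ#1, and 19.2% and 33.4% with siYAP/TAZ#2. Of 58 other mitosis genes, 46 fell with siYAP/TAZ#1 and 38 with siYAP/TAZ#2 and none rose, with medians of -0.35 and -0.30, while on log2(TPM + 1) 30 and 43 of the 58 had a positive change. LMNB1, which encodes lamin B1 of the nuclear lamina, changed by -1.53 ± 0.069 and -1.31 ± 0.068 (edgeR adjusted p = 1.49e-10 and 5.81e-10), and TRIP13, the ATPase that disassembles checkpoint complexes, by -1.09 ± 0.059 and -0.54 ± 0.059 (edgeR adjusted p = 1.09e-09 and 2.13e-06). ARL6IP1 was at 204 ± 4.37 CPM with siYAP/TAZ#1 and 45.6 ± 6.19 with siYAP/TAZ#2, against 302 ± 23.4 in siCo (edgeR adjusted p = 6.01e-05 and 3.44e-12). CDCA5, the cohesin protector sororin, changed by -0.43 ± 0.054 and -0.67 ± 0.054 (edgeR adjusted p = 1.13e-05 and 7.4e-08).

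Of 22 G1/S genes, 16 fell with each combination and 1 rose with siYAP/TAZ#1, with medians of -0.30 and -0.39, while on log2(TPM + 1) 12 and 13 had a positive change. UHRF1, a cofactor of maintenance DNA methylation, changed by -1.46 ± 0.089 and -1.10 ± 0.088 (edgeR adjusted p = 4.23e-09 and 7.16e-08). CDC45 of the replicative helicase changed by -0.53 ± 0.066 and -1.07 ± 0.067, SLBP, the histone stem-loop binding protein, by -0.60 ± 0.077 and -1.19 ± 0.079, and MCM4 by -0.45 ± 0.052 and -0.42 ± 0.052 (edgeR adjusted p at or below 1.4e-05 for each).

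Of 13 genes of DREAM, MuvB and the B-MYB family, 5 fell and 1 rose with siYAP/TAZ#1, the first a share near the 33.3% of coding genes at 5 CPM or more that fell. With siYAP/TAZ#2 9 fell, where 33.4% of those coding genes did. The list had medians of -0.18 and -0.45, while on log2(TPM + 1) 9 and 8 had a positive change. MYBL1, which encodes A-MYB, changed by -2.11 ± 0.11 and -1.52 ± 0.11 (edgeR adjusted p = 6.34e-10 and 1.39e-08). RBL2, the p130 pocket protein, fell with siYAP/TAZ#1 (-1.09 ± 0.060) and was at -0.01 ± 0.059 with siYAP/TAZ#2 (direct difference -1.08 ± 0.060, edgeR adjusted p = 2.75e-09). E2F5, a repressive E2F, was the reverse, at 0.03 ± 0.076 and -2.13 ± 0.086 (direct difference 2.16 ± 0.085, edgeR adjusted p = 5.18e-11). E2F4, which binds DREAM targets with p130, changed by -0.52 ± 0.065 and -0.45 ± 0.065 (edgeR adjusted p = 1.17e-05 and 4.32e-05).

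A further 13 tested genes act in the G2 checkpoint or on the phosphorylation state that sets mitotic entry, as brakes or promoters of it. Of these, 5 fell and 2 rose with siYAP/TAZ#1 and 6 fell and 1 rose with siYAP/TAZ#2, with medians of -0.12 and -0.17. On log2(TPM + 1) 8 and 11 had a positive change. With siYAP/TAZ#1 these shares were near those of coding genes at 5 CPM or more, of which 33.3% fell and 17.9% rose. With siYAP/TAZ#2, 33.4% of those coding genes fell and 21.1% rose. PKMYT1, a membrane-bound kinase that inhibits CDK1, changed by -0.63 ± 0.10 and -0.62 ± 0.10 (edgeR adjusted p = 0.000155 and 0.000162), and the checkpoint kinase CHEK1 by -0.58 ± 0.079 and -0.36 ± 0.078 (edgeR adjusted p = 2.57e-05 and 0.00149). ARPP19, which promotes mitotic entry by inhibiting the phosphatase PP2A with B55, changed by -0.91 ± 0.11 and -0.36 ± 0.11, and PPP2R2A, a B55 subunit, by -0.39 ± 0.062 and -0.31 ± 0.062 (edgeR adjusted p at or below 0.0147 for each). WEE1, the nuclear kinase that inhibits CDK1, was named after its values were seen. It rose with both combinations, at 65.4 ± 5.81 CPM with siYAP/TAZ#1 and 48.3 ± 4.31 with siYAP/TAZ#2, against 40.9 ± 4.41 in siCo (log2 change 0.68 ± 0.088 and 0.24 ± 0.088, edgeR adjusted p = 1.57e-05 and 0.0413), and its siYAP/TAZ#2 libraries overlapped siCo.

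Of 16 APC/C genes, 7 fell with siYAP/TAZ#1 and 5 with siYAP/TAZ#2 and none rose, where 33.3% and 33.4% of coding genes at 5 CPM or more fell, with medians of -0.13 and -0.12, while on log2(TPM + 1) 14 and 13 had a positive change. UBE2S, which extends ubiquitin chains on APC/C substrates, was at 461 ± 49 CPM with siYAP/TAZ#1 and 434 ± 138 with siYAP/TAZ#2, against 905 ± 96.1 in siCo (edgeR adjusted p = 0.00013 and 5.07e-05). CDC23 changed by -0.33 ± 0.097 and -1.60 ± 0.10 (edgeR adjusted p = 0.0134 and 5.21e-09), ANAPC7 by -0.45 ± 0.065 and -0.41 ± 0.066, and ANAPC1 by -0.55 ± 0.086 and -0.44 ± 0.086 (edgeR adjusted p at or below 0.000584 for these 2). Of 10 cohesin genes, 5 fell with siYAP/TAZ#1 and 3 with siYAP/TAZ#2, the second a share near that background, with medians of -0.30 and -0.13, while on log2(TPM + 1) 9 and 10 had a positive change. SMC3 changed by -0.89 ± 0.088 and -0.25 ± 0.087 (edgeR adjusted p = 8.43e-07 and 0.0311), SMC1A by -0.38 ± 0.048 with each, and PDS5A by -0.29 ± 0.051 and -0.17 ± 0.051 (edgeR adjusted p at or below 0.0135 for these 2). WAPL, the cohesin release factor, fell with siYAP/TAZ#1 alone (-0.39 ± 0.087, edgeR adjusted p = 0.00229, against -0.19 ± 0.087, edgeR adjusted p = 0.0926).

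For scale, 21 of 22 YAP/TAZ target genes fell with each combination and 1, AMOTL1, rose with siYAP/TAZ#2 (0.32 ± 0.056, edgeR adjusted p = 0.000258, named after its value was seen), at medians of -1.07 and -0.83, and on log2(TPM + 1) 1 and 4 of them had a positive change. CCN1 changed by -2.90 ± 0.068 and -2.92 ± 0.069, AMOTL2 by -2.21 ± 0.11 and -2.63 ± 0.11, TGFB2 by -2.26 ± 0.062 and -1.49 ± 0.060, and GADD45B by -1.99 ± 0.095 and -2.21 ± 0.097 (edgeR adjusted p at or below 2.96e-10 for each). Of the 50 mitosis and G2/M genes, CDC25A with siYAP/TAZ#2 (-2.46) was the one change that reached the range of these 4 genes, which had the lowest adjusted p of their list. CCNA2 with siYAP/TAZ#2 (-1.05) also lay beyond the median of the 22 target genes for that combination.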

How the data were processed

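RNA sequencing of 12 A549 libraries gave 2 deposited tables per library. The authors deposited estimated counts per Ensembl gene, with no further scaling, and separately their TPM values per gene. Trim Galore 0.6.4, kallisto 0.4.6 and GRCh38.p13 are named in the submitters' processing notes, without role or order, and the sources used here give neither strandedness nor how transcripts were summed to genes. RNA was taken at an integrity number above 7, per the labels' protocols.

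Members were matched by Ensembl ID without version to symbols in a gene name table, which paired 60357 of 60617 IDs. Gene coordinates are those of GENCODE v29 (GRCh38, 1-based), and promoters are RefSeq's on GRCh38.p14. The genes, roles, other lists and tests were chosen with earlier results of these data known. Named were every member, YAP1, WWTR1 and up to 4 genes of each other list with the lowest adjusted p when both combinations were averaged against siCo.

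Estimated counts were rounded and tested with edgeR 4.0.16 (R 4.3.3): TMM scaling, filterByExpr defaults, group as the only term over all 12 libraries, quasi-likelihood F test, Benjamini-Hochberg adjustment over 21581 genes, threshold 0.05. Intervals are 95% from the same fit. CPM are TMM-scaled, with SD over 4 libraries. A count of 10 was worth 0.25 to 0.375 CPM. Within groups, libraries correlated at 0.979 to 0.991 (log2 CPM) and differed by more than sampling noise (chi-square per degree of freedom 3.63 to 72.7), and p-values measure the spread between these libraries only. Alternatives were library size alone, RLE factors, DESeq2 1.42.0, limma 3.58.1 on log2(TPM + 1) and log2(TPM + 0.1), other filters, a block on replicate number and leaving out each library. TMM factors on TPM and coding genes alone were added after seeing the data. The tests were checked on simulated data.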

Additional observations from a re-analysis of the deposited data

Results flagged for a closer look

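In each group of 4 libraries, the gap between the most distant library and its nearest neighbour was set against the group's range, and 15 of 150 groups passed Dixon's 95% critical value, where chance passes about 1 in 20. In siYAP/TAZ#1, CDC25A was at 39.5 CPM in replicate 2 (others 36.7 to 37.2), and replicate 4 was high for BUB1B at 41.9 (36.8 to 37.1), HMMR at 28.5 (23.8 to 24.4) and RACGAP1 at 94.8 (82.4 to 83.5). In siYAP/TAZ#2, replicate 1 was low for CKS2 at 20 CPM (25.5 to 26.4), TTK at 16.3 (25.9 to 27.6), ECT2 at 86.9 (132 to 137) and RACGAP1 at 73.5 (91 to 94.6), and high for PLK1 at 187 (163 to 166) and ESPL1 at 139 (121 to 123). Replicate 3 of siYAP/TAZ#2 was high for CDCA8 at 50.9 CPM (46 to 46.8). In siCo, replicate 4 was high for MAD2L1 at 33.2 CPM (28.7 to 29.4), CENPF at 267 (239 to 243), TPX2 at 292 (267 to 270.1) and TOP2A at 585 (523 to 526).

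The effects of the combinations differed by the direct test in 10 genes, as log2 of siYAP/TAZ#1 minus siYAP/TAZ#2: CDC25A 1.88, CCNA2 0.54, BUB3 0.23, KIF2C 0.21, SMC4 -0.20, CDCA8 -0.24, MKI67 -0.24, HMMR -0.33, TOP2A -0.35 and ANLN -0.36. In that test 13.6% of coding genes at 5 CPM or more were lower and 11.7% higher.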

How the results depend on the processing

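With RLE factors or DESeq2 the counts stayed at 43 and 39 genes lower with siYAP/TAZ#1 and siYAP/TAZ#2. The replicate numbers did not meet the rule for pairing the libraries (same-number correlations of deviations between -0.153 and 0.208). The 3 replicate 4 pairs were all positive (0.193, 0.148 and 0.208). Not every library correlated best with its own number, and the replicate block gave 44 and 39. Coding genes alone gave 42 and 38. Leaving out 1 library gave 40 to 45 lower with siYAP/TAZ#1, 35 to 39 with siYAP/TAZ#2, and in the direct comparison 2 to 13 lower and 2 to 5 higher, with 1278 to 2840 lower and 1178 to 2287 higher among all genes. The fit without a library assumes that the 3 left in its group vary like the other groups.

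Scaling moved the counts most. Library size alone gave 24 and 18 lower, 15 with both, 2 higher in the direct comparison, and 1905 and 2037 lower and 5876 and 6538 higher among all genes. With log2(TPM + 1) they were 0 and 1 lower and 0 higher with siYAP/TAZ#1, 0 lower and 0 higher with both, 0 lower and 1 higher in the direct comparison, and 156, 198 and 78 lower and 1736, 3519 and 39 higher among all genes (siYAP/TAZ#1, siYAP/TAZ#2 and direct). With log2(TPM + 0.1) the module counts were the same, with 172, 207 and 69 lower and 2137, 3860 and 49 higher. TMM factors on TPM gave 1 lower in the direct comparison, with 825 lower and 896 higher among all genes. Higher genes were 46.9% and 49.7% of calls after TMM scaling, 75.5% and 76.2% when library size was the only scaling, and 91.8% and 94.7% for log2(TPM + 1).

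On log2(TPM + 1), the log2 change with siYAP/TAZ#1 turned positive in BUB1 0.03, BUB1B 0.21, BUB3 0.01, CCNB1 0.07, CCNB2 0.07, CENPA 0.09, CENPE 0.01, CKS2 0.04, ESPL1 0.09, FOXM1 0.08, INCENP 0.03, KIF11 0.07, KIF2C 0.17, KIF4A 0.08, MKI67 0.02, NCAPG 0.11, NCAPH 0.06, NDC80 0.20, NUSAP1 0.36, SMC2 0.02, SPC25 0.16 and TTK 0.02. With siYAP/TAZ#2 it did so in ANLN 0.04, BUB1 0.01, BUB1B 0.19, CCNB1 0.14, CCNB2 0.20, CDC25C 0.32, CDK1 0.09, CENPA 0.13, CENPE 0.03, CENPF 0.00, ESPL1 0.08, FOXM1 0.26, HMMR 0.27, INCENP 0.15, KIF11 0.26, KIF20A 0.13, KIF23 0.02, KIF2C 0.10, KIF4A 0.10, MKI67 0.26, MYBL2 0.05, NCAPG 0.31, NCAPH 0.01, NDC80 0.19, NUF2 0.11, NUSAP1 0.18, RACGAP1 0.12, SMC2 0.24, SMC4 0.18, SPC25 0.27, TOP2A 0.15 and TTK 0.18. A pseudocount of 0.1 gave the same signs except for CENPE with siYAP/TAZ#1, and values other than these for BUB1B 0.22, KIF2C 0.18, KIF4A 0.09, NCAPG 0.12, NDC80 0.24, NUSAP1 0.37 and SPC25 0.19 with siYAP/TAZ#1, and for BUB1 0.00, BUB1B 0.20, CCNB2 0.21, CDC25C 0.36, CENPA 0.14, CENPE 0.01, ESPL1 0.09, HMMR 0.29, INCENP 0.16, KIF11 0.27, KIF4A 0.11, NCAPG 0.35, NDC80 0.22, NUF2 0.12, SMC2 0.25, SMC4 0.19, SPC25 0.30 and TTK 0.19 with siYAP/TAZ#2. With library size alone the sign turned in NDC80 0.09, KIF2C 0.00 and NUSAP1 0.06 with siYAP/TAZ#1, and in CDC25C 0.16, CENPE 0.02, KIF11 0.03, MKI67 0.06, NCAPG 0.10, NDC80 0.12, SMC2 0.01 and SPC25 0.09 with siYAP/TAZ#2. With 1 library left out, NDC80 ran between -0.16 and 0.06 with siYAP/TAZ#1 and between -0.14 and 0.08 with siYAP/TAZ#2, positive without siCo replicate 4. With siYAP/TAZ#2, CDC25C ran between -0.12 and 0.11, positive without siYAP/TAZ#2 replicate 1 or siCo replicate 4 (0.04), and SPC25 between -0.22 and 0.04, positive without siYAP/TAZ#2 replicate 1. The sign also turned in CDC25C with siYAP/TAZ#2 at a mean count of 50 or more (0.00) and in NUSAP1 with siYAP/TAZ#1 on TPM with TMM factors (0.02). The cause of these turns was not tested.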
